A study of Oryza sativa with 16 samples.

Results

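Drought-stressed flag leaves of DTY-IL were compared with drought-stressed flag leaves of Swarna, with 4 libraries in each group. The compared groups thus hold 8 of the 16 libraries. DTY-IL is a drought-tolerant introgression line of rice that holds fragments of the donor N22 in a Swarna background, and Swarna is its drought-sensitive recurrent parent. DTY-IL drought and Swarna drought plants grew in pots, were deprived of water at the reproductive stage, were held at 75% field capacity for 9 days and then at 50% for 3 days, and were sampled on day 12. DTY-IL control and Swarna control plants (4 libraries each) were well watered. They served to show whether a difference under drought was also present without stress. Their libraries also entered the count filter and the shared fit from which the spread between libraries was estimated. The tolerant genotype is a single line, so the contrast concerns that line and not every carrier of the N22 fragments. All loci with at least 10 counts over the 16 libraries were tested, which were 28283 of the 55801 loci in the count table.

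The flag leaf is the last leaf to form below the panicle and supplies much of the sugar that fills the grain. Under drought a rice leaf closes its stomata, lowers the expression of photosynthesis genes and raises that of protective proteins, enzymes that remove reactive oxygen and genes under the control of abscisic acid. Drought-yield loci (qDTY) are regions of the rice genome mapped for grain yield under drought. The deposited tables identify loci by number and do not pair them with gene names, and 0 of the identifiers matched the gene table used here. Roles are therefore given only for the 8 loci that the text of the study annotates. Leaf and grain marker lists, and lists of other functions, could not be applied to the remaining identifiers.

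The 8 drought libraries had 14250527 to 17325329 counts in DTY-IL and 14854039 to 17136250 in Swarna. The number of loci with a count was 26933 to 27826 in DTY-IL and 27010 to 27512 in Swarna. The exact two-sided permutation p was 0.886 for the totals and 0.857 for the number of loci (0.886 for both after Benjamini-Hochberg adjustment over 3 library measures). The 20 loci with the most counts in the drought libraries took 12.3%, 11.2%, 14.5% and 10.9% of the counts in DTY-IL, against 7.28%, 9.15%, 8.84% and 8.82% in Swarna, with no overlap. The exact two-sided permutation p of that share was 0.0286 (0.0857 after adjustment), and no smaller p is possible with 4 libraries against 4. The DTY-IL drought libraries also varied more among themselves. Over the 18797 loci with a mean of at least 1 CPM (counts divided by the TMM-corrected library size), the median SD of log2 CPM was 0.257 for DTY-IL drought, against 0.216 for Swarna drought, and the SD was larger in DTY-IL for 62.5% of these loci. DTY-IL drought 2 stood farthest from its own group, with a median correlation of 0.949 with the other 3 libraries. The correlation is across loci, which are not independent replicates. The part of this spread in the results below was not tested, except where values without that library are given.

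Stressed DTY-IL leaves differed from stressed Swarna leaves at 1863 loci, and the majority of these had more transcript in DTY-IL. A locus was called when its adjusted p (edgeR's quasi-likelihood test, Benjamini-Hochberg) did not exceed 0.05 and DTY-IL differed by a log2 fold change of 1 or more in either direction. The calls made up 6.59% of the tested loci. DTY-IL was higher at 1188 loci (4.20% of those tested) and lower at 675 (2.39%). In bulk tissue fewer cells of a type and less RNA per cell cannot be told apart. The median log2 fold change was 1.88 among the higher and −1.90 among the lower calls, beside 0.01 over all tested loci.

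Most of the differences were modest in size. An absolute log2 fold change from 1 to below 2 was found for 641 higher and 355 lower calls, which together were 53.5% of all calls. A value from 2 to below 3 was found for 222 higher and 128 lower calls, and a value from 3 to below 5 for 176 and 115. At 149 higher and 77 lower calls it was 5 or more. Calls were most frequent at low to middle levels. The loci were divided into 5 groups of equal size by mean level in the drought libraries. In the lowest group (at most 0.237 CPM) 3.64% were called, in the next (to 1.94 CPM) 12.0%, in the middle group (to 9.73 CPM) 9.53%, in the one above it (to 30.8 CPM) 4.63% and in the highest 3.09%. The mean level was below 1 CPM at 396 of the 1188 higher and 233 of the 675 lower calls, where few reads support each value.

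**Figure D1:**
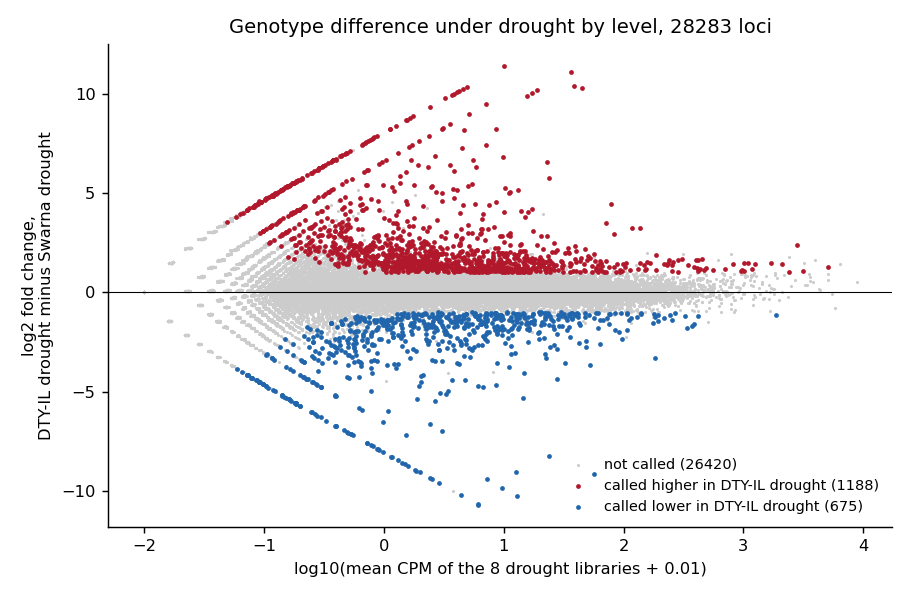
The log2 fold change of each tested locus (DTY-IL drought minus Swarna drought, vertical axis) is plotted against log10 of its mean CPM in the 8 drought libraries plus 0.01; red points are the 1188 loci called higher in DTY-IL, blue points the 675 called lower and grey points were not called. The diagonal lines at the left edge are loci with no or very few counts in a genotype, where the fitted fold change follows from the level.

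The libraries of the genotypes did not overlap in CPM at 979 of the higher and 574 of the lower calls, or 1553 in all. Over all tested loci the libraries did not overlap at 15.9%. At 62 of the higher calls more than 70% of the DTY-IL drought counts came from a single library, which was DTY-IL drought 2 for 53, DTY-IL drought 3 for 8 and DTY-IL drought 4 for 1. The same held for Swarna drought 4 at 2 of the lower calls. Among all tested loci with at least 200 counts in the group, a single library held over 70% at 52 of 16055 in DTY-IL drought. In Swarna drought it was 20 of 16008. The calls were not held to that minimum of counts. Without DTY-IL drought 2, 943 loci were called higher and 542 lower in DTY-IL. With library size alone in place of TMM factors the median log2 difference over all loci was −0.12, and 52.1% of the calls were higher in DTY-IL in place of 63.8%, with 1002 higher and 920 lower. A replicate block on the number in the sample descriptions left 1250 calls, of which 814 were higher and 436 lower in DTY-IL. No other library shares the number of DTY-IL drought 2, so this block also takes that library out of the comparison. A block effect and the loss of that library cannot be told apart in these counts.

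The most abundant transcripts leaned towards DTY-IL. Of the 20 loci with the most counts in the drought libraries, 18 had a log2 fold change above 0, and the median was 0.61. The adjusted p passed for 6, each higher in DTY-IL, beside 11.2% of all tested loci in either direction. Of these 6, 3 also passed the fold-change threshold (log2 fold change 1.06 or more, up to 2.37), beside 4.20% of all tested loci called higher. None was called lower, and the lowest value was −0.77. Under control the median difference of the same loci was −0.23.

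The well-watered plants were used to ask which of the differences were already present without stress. DTY-IL control was called higher than Swarna control at 845 loci (2.99% of those tested) and lower at 600 (2.12%). The genotype by drought interaction, which tests whether the difference under drought differs from that under control, passed the adjusted p at 1816 loci (6.42% of those tested). The drought and control contrasts use different libraries, whereas the interaction shares the drought libraries with the calls, so the interaction counts among the calls describe them and are not a separate line of evidence.

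A set of 422 loci differed in the same direction in both treatments. Of the 1188 loci higher under drought, 230 were also called higher under control, which was 19.4% of the higher calls under drought and 27.2% of those under control. Of the 675 lower loci, 192 were also called lower under control, which was 28.4% of the lower calls under drought and 32.0% of those under control. At the median these loci were nearly silent in the genotype with less transcript. The median CPM of the 230 loci was 2.16, 3.15, 2.73 and 2.45 in the DTY-IL drought libraries, against 0.0960, 0.0978, 0.107 and 0.103 in the Swarna drought libraries. The median CPM of the 192 loci was 0.137, 0.178, 0.195 and 0.171 in the DTY-IL drought libraries, against 2.21, 2.18, 2.45 and 2.01 in the Swarna drought libraries. The median log2 fold change of the 230 was 3.86 under drought and 3.73 under control, and that of the 192 was −3.11 under drought and −3.67 under control.

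A larger set of calls differed between the treatments in the size or direction of the genotype difference, and most of these were higher in DTY-IL under drought. The interaction passed at 555 of the higher calls (46.7%) and 99 of the lower calls (14.7%). Leaving aside loci called alike under control, 535 higher and 91 lower loci remained. At the median, the 535 higher loci had transcript in all groups and were lowest in stressed Swarna. Their median CPM was 4.21, 6.65, 3.70 and 3.07 in the DTY-IL drought libraries, against 1.06, 1.27, 1.33 and 1.24 in the Swarna drought libraries. It was 6.85 to 8.38 in the DTY-IL control libraries and 9.31 to 12.8 in the Swarna control libraries. The median log2 change between drought and control at these loci was −0.60 in DTY-IL and −3.13 in Swarna. These changes share the drought libraries with the comparison of genotypes and are given as values only. DTY-IL drought 2 had the highest level of the 4 DTY-IL drought libraries. Without it the interaction passed at 397 higher and 81 lower calls. With the replicate block by description number, which also takes out DTY-IL drought 2, the interaction passed at 359 higher and 88 lower calls. With library size alone it passed at 407 higher and 217 lower calls. The glmTreat test asks for a genotype difference beyond the fold-change threshold and was not applied to the interaction. With it, 134 higher and 32 lower calls had an interaction, against 104 higher and 83 lower calls alike under control. The set called alike was then the larger over both directions, but not among the higher calls.

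The 91 lower loci showed the reverse arrangement, with the highest level in stressed Swarna. Their median CPM was 3.17, 2.67, 2.78 and 3.87 in the DTY-IL drought libraries, against 10.7, 10.5, 9.60 and 10.0 in the Swarna drought libraries. It was 2.42 to 2.75 in the DTY-IL control libraries and 1.42 to 1.90 in the Swarna control libraries. The median log2 change between drought and control was −0.02 in DTY-IL and 2.25 in Swarna.

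**Figure D2:**
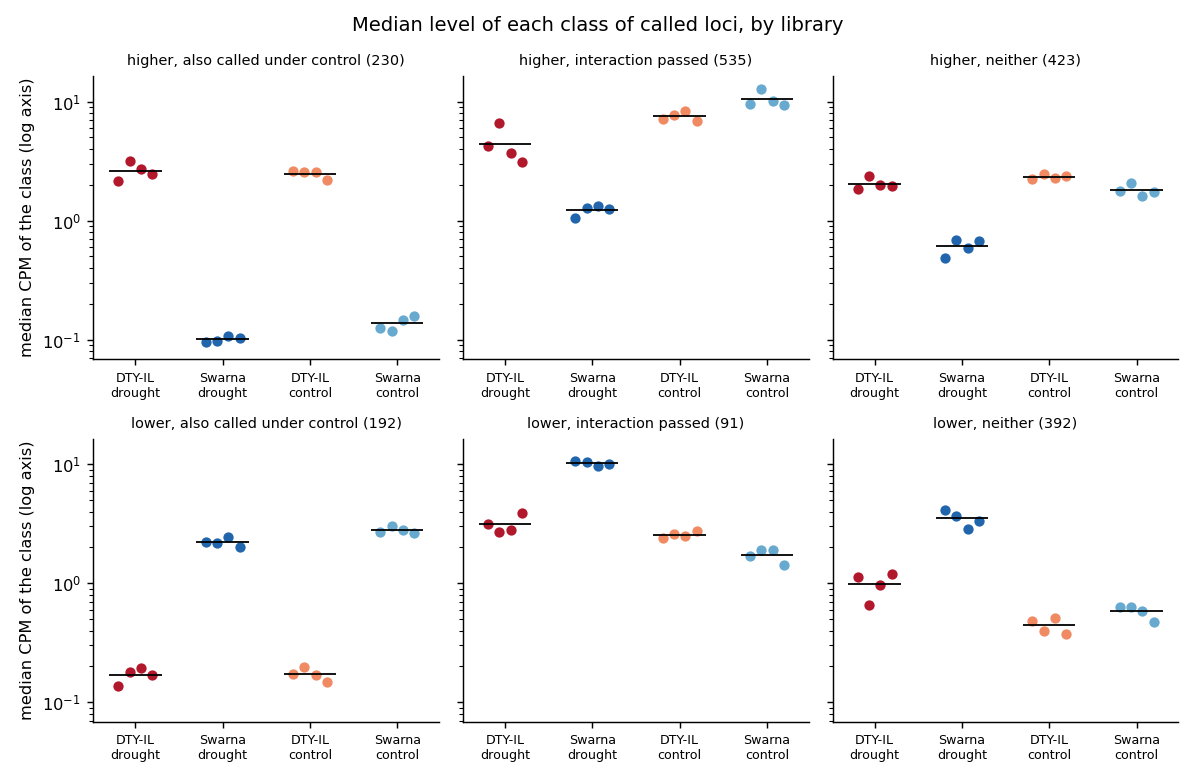
Each point is the median CPM of a class of called loci in a library (log axis), with DTY-IL drought, Swarna drought, DTY-IL control and Swarna control from left to right and a black line at the mean of the 4 libraries; panels give the 230, 535 and 423 higher and the 192, 91 and 392 lower loci. In the classes called alike under control the genotypes differ in both treatments, whereas in the classes with an interaction Swarna drought stands apart from the other groups.

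The direction of the difference was opposite in the 2 treatments at 64 loci. At 58 loci DTY-IL was called higher under drought and lower under control, and the interaction passed at each of them. Their median CPM was 3.66 in DTY-IL drought, against 0.593 in Swarna drought, while it was 2.14 in DTY-IL control, against 7.96 in Swarna control. The other 6 were called lower in DTY-IL under drought and higher under control, with a median of 3.90 CPM in DTY-IL drought, against 17.4 CPM in Swarna drought. The remaining 423 higher and 392 lower calls passed neither the control contrast in the same direction nor the interaction. For these loci the data do not say whether the difference under drought differed from that under control. Their median log2 difference under control was 0.43 for the higher and −0.41 for the lower loci.

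**Figure D3:**
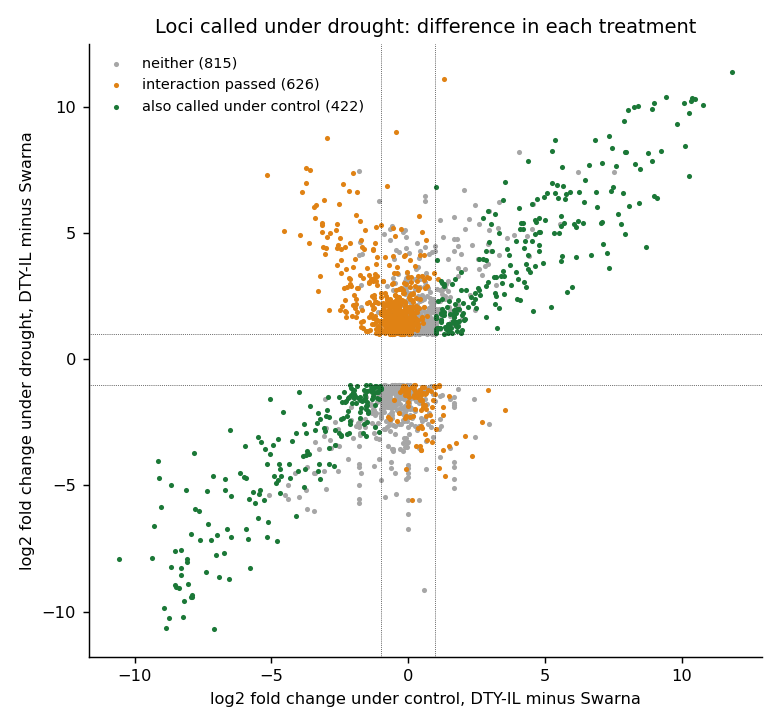
The log2 fold change of the 1863 called loci under drought (DTY-IL minus Swarna, vertical axis) is plotted against that under control (horizontal axis), with dotted lines at −1 and 1. The 422 loci called alike in both treatments (green) lie along the diagonal, and 815 loci (grey) passed neither. Of the 626 other loci with an interaction (orange), 478 had a control difference below 1 in size, 146 had a larger one on the opposite side and 2 a larger one on the same side.

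Of the 4 loci named for the largest fitted differences, 3 were read in a single genotype in both treatments, apart from single counts. LOC_Os01g73656 had 17.7, 21.7, 21.0 and 20.04 CPM in DTY-IL drought, against 0 counts in every Swarna drought library. Its mean was 20.1 CPM ± 1.76 in DTY-IL drought (SD, n = 4), at least 133-fold higher than 3 counts per Swarna library (edgeR adjusted p 4.59e-10), and the same genotype alone had counts under control (mean 27.3 CPM ± 1.55 in DTY-IL control, SD, n = 4). LOC_Os01g62750 and LOC_Os03g05049 had 0 counts in every DTY-IL drought library. LOC_Os01g62750 had 13.1, 12.5, 14.7 and 8.98 CPM in Swarna drought, and DTY-IL was at least 74.7-fold lower (edgeR adjusted p 9.79e-10). LOC_Os03g05049 had 11.997, 10.999, 15.94 and 9.498 CPM in Swarna drought, and DTY-IL was at least 73.5-fold lower (edgeR adjusted p 3.80e-09). Neither had more than 1 count in any DTY-IL control library, so these 3 loci differed between the genotypes with and without stress.

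LOC_Os01g52240 was different, because both genotypes expressed it when well watered. It had 84.8, 158, 14.7 and 32.7 CPM in DTY-IL drought, against 0.0960 CPM in Swarna drought 1 and 0 in the other 3 Swarna drought libraries. DTY-IL drought had 5081 counts and Swarna drought had 2, a ratio of 2755 after scaling with an exact 95% counting interval from 762 to 22757, which leaves out the spread between libraries (edgeR adjusted p 6.09e-06). The fitted log2 fold change of 11.12 was 13.20 without Swarna drought 1, which held both Swarna counts, and 10.40 without DTY-IL drought 2, and over all alternatives the adjusted p ranged from 4.33e-17 to 0.00453. Under control its mean was 813 CPM ± 528 in DTY-IL and 328 CPM ± 190 in Swarna (SD, n = 4), and the genotypes were not called different (log2 fold change 1.31 ± 0.60 SE, edgeR adjusted p 0.187). The log2 interaction was 9.81 ± 1.39 (SE; edgeR adjusted p 0.00128), where the fitted size depends on the prior count because Swarna drought is near 0.

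The study picked the 8 annotated loci partly on these flag-leaf libraries, as for the peroxidases, and partly on panicle libraries not used here, so the directions of those picked on the leaf are not independent evidence. In stressed leaves 7 had enough counts to be tested, and 2 were called, both higher in DTY-IL, beside 6.59% of all tested loci called either way. The median log2 fold change of the 7 was 0.87, beside 0.01 over all tested loci, and 5 of the 7 had at most 280 counts over the 16 libraries.

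Class III peroxidases are secreted enzymes that use hydrogen peroxide to cross-link cell wall polymers or to form radicals that cleave them, and the called loci were both of this family. LOC_Os03g13200 had 0.656, 0.653, 0.292 and 0.228 CPM in DTY-IL drought, against 0.0480, 0.0489, 0.107 and 0 CPM in Swarna drought. The groups did not overlap, but the counts behind them were 33 in DTY-IL and 4 in Swarna (scaled ratio 8.95, exact 95% counting interval 3.18 to 34.8). Its log2 fold change was 3.00 ± 0.83 (SE, edgeR adjusted p 0.0257). The call was lost with the replicate block by description number (adjusted p 0.105) and without any of DTY-IL drought 1, DTY-IL drought 2, Swarna drought 1, Swarna drought 2 or Swarna drought 4, and over all alternatives the adjusted p ranged from 0.0107 to 0.182. Under control its log2 difference was 1.37 ± 1.00 (SE; edgeR adjusted p 0.440).

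LOC_Os07g48020 had 0.0546, 0.475, 0.731 and 2.22 CPM in DTY-IL drought, against 0, 0.0978, 0.0533 and 0.155 CPM in Swarna drought. DTY-IL drought 1 fell within the range of the Swarna libraries, and DTY-IL drought 4 held 39 of the 63 counts of its group. The log2 fold change was 3.39 ± 0.87 (SE, edgeR adjusted p 0.0177), from 63 counts in DTY-IL and 6 in Swarna (scaled ratio 11.4, exact 95% counting interval 4.95 to 32.2). Without DTY-IL drought 4 it was 2.37 with an adjusted p of 0.0859, and without Swarna drought 1 the adjusted p was 0.0567. The call was also lost with the drought libraries alone in the fit (edgeR adjusted p 0.0653). The same held for limma-voom (adjusted p 0.0676) and glmTreat (adjusted p 0.124). Over all alternatives the adjusted p ranged from 0.00391 to 0.124. Under control the difference was −1.19 ± 0.97 (SE, edgeR adjusted p 0.492), and the interaction of 4.59 ± 1.31 passed (SE, edgeR adjusted p 0.0452).

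The third peroxidase, LOC_Os07g01370, had 1.64, 1.07, 2.44 and 1.20 CPM in DTY-IL drought, against 0.336, 0.684, 1.07 and 1.39 CPM in Swarna drought, so the groups overlapped. Its log2 fold change of 0.87 ± 0.38 under drought was not called (SE, edgeR adjusted p 0.160). Under control it was called higher in DTY-IL (1.60 ± 0.44 SE, edgeR adjusted p 0.0286), and the interaction was −0.73 ± 0.58 (SE, edgeR adjusted p 0.523). Peroxidases form a large gene family with similar copies, among which the estimated counts could be split.

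Regulators of the annotated set were not called between the stressed genotypes. LOC_Os01g66120 encodes a no apical meristem (NAC-type) protein, a family of transcription factors with members that act in stress and development, and lies in the qDTY1.1 region. It had 369, 180, 345 and 588 CPM in DTY-IL drought, against 844, 394, 368 and 491 CPM in Swarna drought. The log2 fold change was −0.50 ± 0.30 (SE, edgeR adjusted p 0.322), beside −0.41 ± 0.30 under control. Drought raised it in both genotypes, by 1.14 ± 0.30 on the log2 scale within DTY-IL (SE; edgeR adjusted p 0.00606) and by 1.23 ± 0.30 within Swarna (adjusted p 0.00259), in contrasts that share these drought libraries (DTY-IL control mean 168 CPM ± 32.1, Swarna control mean 224 CPM ± 39.8, SD, n = 4). LOC_Os03g03510, a CIPK-type protein kinase of the qDTY3.2 region, belongs to a family that relays calcium signals in stressed cells. It had 73.6, 22.1, 42.9 and 65.6 CPM in DTY-IL drought, against 129, 52.6, 47.1 and 73.7 CPM in Swarna drought, a log2 fold change of −0.57 ± 0.33 (SE, edgeR adjusted p 0.300).

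LOC_Os01g66820, annotated as the precursor of an inactive receptor kinase, had 0.273, 0.297, 0.0974 and 0.0569 CPM in DTY-IL drought, against 0.144, 0, 0 and 0.103 CPM in Swarna drought. The log2 fold change was 1.41 ± 0.75 (SE, edgeR adjusted p 0.261), from 13 counts in DTY-IL and 5 in Swarna. Without stress its mean was 1.20 CPM ± 0.510 (DTY-IL) and 1.32 CPM ± 0.259 (Swarna, SD, n = 4 each). LOC_Os07g22770, an AP2 domain protein of a family that controls floral organ identity, had 0.114 to 0.356 CPM in DTY-IL drought, against 0 to 0.336 CPM in Swarna drought (log2 fold change 0.31 ± 0.70 SE, edgeR adjusted p 0.838). LOC_Os01g67030, the auxin-responsive protein of the qDTY1.1 region, had 1 count in all 16 libraries, in DTY-IL drought 1, and was not tested. At this depth no difference could be detected there.

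**Figure D4:**
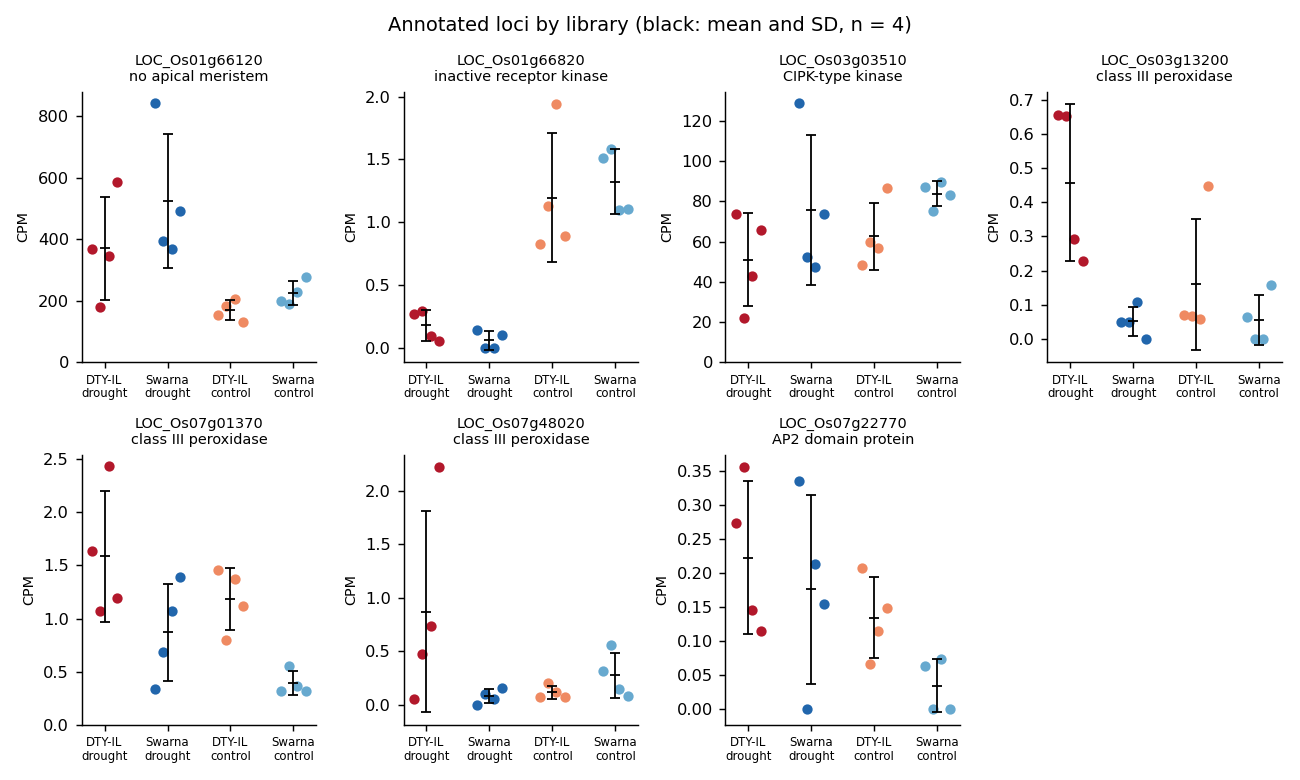
CPM of the 7 tested annotated loci in each library (coloured points), with the mean and SD of the 4 libraries in black and the groups in the order DTY-IL drought, Swarna drought, DTY-IL control and Swarna control. The axes differ between panels, the peroxidases LOC_Os03g13200 and LOC_Os07g48020 lie below 2.5 CPM, and LOC_Os01g66120 overlaps between the stressed genotypes.

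Some loci gave reads in DTY-IL or in Swarna alone. Under drought 42 loci had at most 3 counts in every Swarna library and a mean of at least 50 in DTY-IL, and 22 loci had the reverse pattern. The control libraries, which are separate from these, were used to see whether the pattern held without stress. Of the 28 loci with the DTY-IL pattern under control, 26 were called higher in DTY-IL under drought, and of the 21 loci with the Swarna pattern under control, 19 were called lower in DTY-IL under drought. The same pattern under drought, including the mean of at least 50 counts, was met by 23 of the 28 and 12 of the 21. Missing it need not mean more than 3 counts in the genotype with few reads, because the mean alone can fall short. Reads were assigned to japonica transcripts, so how well the N22 and Swarna alleles match those transcripts cannot be told apart from expression at such loci.

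Of the 42 loci at or near 0 in stressed Swarna, 14 had more than 3 counts in a Swarna control library. The interaction passed at 13 of these, beside 6.42% of all tested loci. The 14 loci were picked on counts that the interaction also uses, so that number only describes them. Their mean count in Swarna control ran from 1.25, with a median of 62.5, to 4323 at LOC_Os01g52240. Reads of these loci were thus present in Swarna without stress, although they were few at the lowest of them. Of the 22 loci at or near 0 in stressed DTY-IL, 2 were above that level in a DTY-IL control library. The interaction passed at 0 of them by edgeR or DESeq2, and at both by edgeR's unadjusted p under 0.05.

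Positions were taken from the order of the locus identifiers, which number loci along each chromosome, and no coordinates were used. The calls lay on all 12 chromosomes, from 4.54% of the tested loci of chromosome 5 to 9.06% of those of chromosome 4. The loci called alike in both treatments were spread unevenly. They made up 3.16% of the tested loci on chromosome 4, 2.58% on chromosome 9, 2.47% on chromosome 1 and 2.35% on chromosome 11, but 0.519% on chromosome 5 and 0.570% on chromosome 2. The other called loci with an interaction, leaving aside those called alike under control, were 1.51% on chromosome 5 to 2.73% on chromosome 7. In 276 windows of about 100 consecutive tested loci, the 10 windows with the most loci called alike held 26.3% of these loci, whereas the 10 windows with the most interaction loci held 10.4% of those. The windows were ranked by the counts they describe, so these shares are a description. A window held at most 15% loci called alike (median 1%) and at most 9% interaction loci (median 2%). Of the 42 loci read in DTY-IL alone under drought, 10 were on chromosome 1, 10 on chromosome 4 and 7 on chromosome 11. Of the 22 loci read in Swarna alone, 2, 5 and 4 were on these chromosomes. They held 3885, 2528 and 1748 of the 28283 tested loci.

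**Figure D5:**
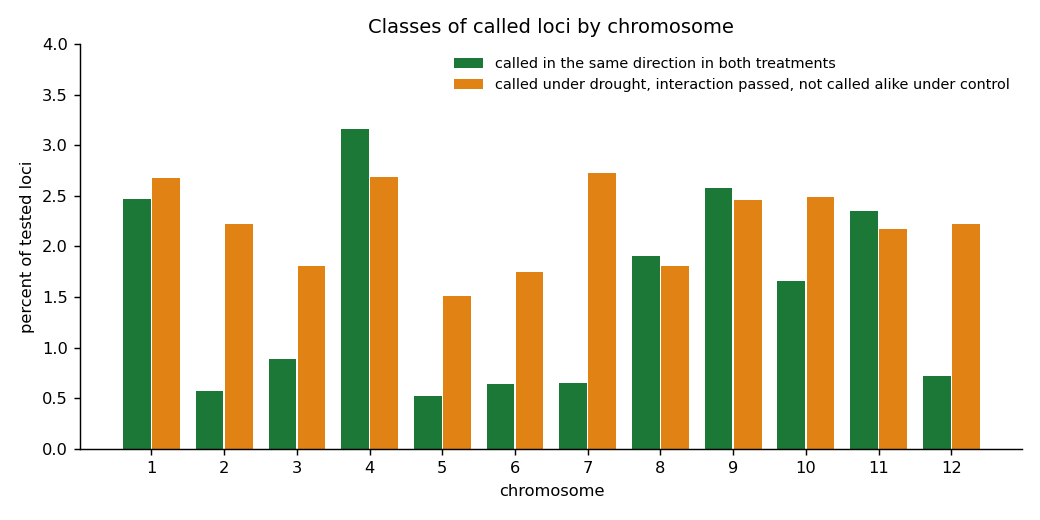
Bars give the percent of tested loci on each of the 12 chromosomes that were called in the same direction in both treatments (green) or called under drought with an interaction and not called alike under control (orange). The green bars range from 0.519% to 3.16% and the orange bars from 1.51% to 2.73%.

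The identifiers from LOC_Os01g66120 to LOC_Os01g67030, which are the annotated loci of the qDTY1.1 region with the lowest and the highest number, span 84 loci, of which 60 were tested. Under drought 5 of these were called (8.33%, beside 6.59% of all tested loci), 3 higher and 2 lower in DTY-IL. The log2 fold changes were 1.51 to 1.62 for the higher and −1.41 to −1.14 for the lower loci. The libraries did not overlap at any of the 5, beside 1553 of all 1863 calls without overlap. Of the 5 loci, 2 were also called under control. The interaction passed at 0 of them by edgeR or DESeq2, and at 1 by edgeR's unadjusted p under 0.05. Without Swarna drought 4, 9 loci of the interval were called. The median log2 fold change over the 60 loci was 0.09.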

How the data were processed

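Flag-leaf RNA was sequenced in 16 libraries, 4 per genotype and treatment, grouped by the sample labels as independent biological replicates. Per the labels and the methods of the study, the authors trimmed reads with Trimmomatic, quantified transcripts of the japonica reference with Salmon 0.7.2 and summed them to genes. The deposited table holds the estimated count (expected count) per locus in whole numbers, not normalized. Whether these counts were scaled by transcript length is not given in the sources used here. The 4 deposited contrast tables hold log2 fold changes, errors and p-values by the authors (DESeq2 1.14.1) and were not used.

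Loci with at least 10 counts in total were fitted with edgeR 4.0.16 in R 4.3.3 (TMM normalization, quasi-likelihood test, 4 group means over 16 libraries). The script was tested on simulated data. Calls required an adjusted p no higher than 0.05 and a log2 fold change of 1 or more in either direction. Log2 CPM used a pseudocount of 0.5. Counting intervals and floors cover counting error only, and precision rests on the spread between libraries of 14250527 to 17325329 counts. Named loci were the 8 annotated by the study, plus the 2 of largest fold change per direction among called loci without overlap whose drought libraries averaged 50 counts or more. The members, lists and tests were chosen with earlier results of these data known. Alternatives used limma 3.58.1 and DESeq2 1.42.0. Summaries used Python 3.11.15, pandas 2.3.3 and SciPy 1.17.1.

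The numbers in the sample descriptions were checked as pairs. Deviations from the group means correlated at 0.164, 0.212 and 0.147 in the 3 pairs of drought libraries that share such a number. These pairs also share a title number, and the other pair by title number had −0.0583. Swarna drought 1 was not the best match of DTY-IL drought 1 among the Swarna drought libraries. In the other combinations of groups, pairs that share a description number ranged from −0.175 to 0.170. Whether the number marks a shared effect was not tested. Pots stood in a randomized complete block design, and the labels do not say whether these numbers are its blocks. No sequencing batch or date is given for the libraries. The fit without the block was kept as the main one because the study describes no block term in its contrasts.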

Additional observations from a re-analysis of the deposited data

Results flagged for a closer look

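Of 30 groups of 4 values checked for a library far from the others (named loci and library measures in the drought groups), 1 stood out. For values without ties, chance alone gives about 1 in 20. At LOC_Os01g52240, Swarna drought 1 had 0.0960 CPM, from 2 counts, and the other 3 Swarna drought libraries had 0. With 3 libraries at 0, any count in the remaining library is flagged, so the flag does not mark Swarna drought 1 as unusual. The difference between the genotypes changed with the treatment at 2 of the named loci, by the interaction test. The interaction was 9.81 on the log2 scale at LOC_Os01g52240 (edgeR adjusted p 0.00128) and 4.59 at the peroxidase LOC_Os07g48020 (edgeR adjusted p 0.0452). At the peroxidase 39 of the 63 DTY-IL drought counts came from DTY-IL drought 4.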

How the results depend on the processing

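Higher calls outnumbered lower calls under all alternatives run, and other than glmTreat and adjusted p alone each gave a total within 1.5 times the 1863 calls under drought. Of the 1863, 25.7% kept call and direction with glmTreat, 60.9% with the block by description number and 68.1% without Swarna drought 1. Adjusted p alone gave 3159 calls (1931 higher, 1228 lower in DTY-IL), and 153 lower calls with an interaction. The glmTreat test of a change beyond the fold-change threshold gave 478 (298 higher, 180 lower), with 104 higher and 83 lower in both treatments, 134 higher and 32 lower with an interaction, and 0 in the chromosome 1 interval. Lower calls with an interaction numbered 217 with library size alone and 156 with DESeq2, against 99. The replicate block by description number, which also takes out DTY-IL drought 2, gave 436 lower calls. Under it 359 higher calls had an interaction, and LOC_Os03g13200 lost its call. No other call of a named locus changed under this block. The replicate block by title number gave 1792 calls (1128 higher, 664 lower). Leaving out a library gave 1358 (without Swarna drought 1) to 1921 calls, 880 to 1256 higher and 478 to 665 lower. Without both DTY-IL drought 2 and Swarna drought 4, chosen after seeing the data, 1413 loci were called, of which 1232 were among the 1863. The difference of LOC_Os07g22770, which was not called, had the opposite sign with the block by description number (−0.14) and without both libraries (−0.0074), and ranged from −0.072 (without Swarna drought 2) to 0.84 when a library was left out. The causes were not tested. Low counts limit the annotated loci: edgeR's filterByExpr left both called peroxidases untested.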
